A study of Mus musculus with 2 samples.

Results

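The genes described here are 43 of the 32285 genes in both count matrices, chosen by name as the cell's DNA damage signalling and repair machinery. They comprise 12 genes of the ATR checkpoint, 10 of ATM signalling and damaged chromatin, 15 of recombination and crosslink repair, and 6 of end joining and single-strand break repair. All 43 had 20 or more unique molecular identifiers (UMIs, each standing for 1 captured transcript) over both libraries. Single immune cells from the inflamed colon of C57BL/6 mice were profiled with the 10x 3′ kit, in 1 library labelled CKO and 1 labelled WT. The series title names loss of RPA1 and T cells. The presence of the deletion was not checked in any cell class. The sources used here do not give the Cre driver, the deleted exons, the age and number of the mice or the agent that induced colitis. With 1 library per label there was no replicate check, no test between the labels was made, and the label cannot be told apart from the animals, the preparation or the library.

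ATR is the kinase recruited, with its partner ATRIP, to single-stranded DNA coated by replication protein A (RPA), the complex whose large subunit is RPA1. ATM is its counterpart at double-strand breaks, where the MRE11, RAD50 and NBS1 complex recruits it and H2AX is phosphorylated. Dividing lymphocytes rely on these routes when forks stall, and lymphocytes also make programmed breaks in their antigen receptor genes, which end joining closes.

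Of 11311 barcodes with 57740083 UMIs labelled CKO, 10942 cells were kept, and of 2972 barcodes with 18627050 UMIs labelled WT, 2924. Cells were grouped by clustering without the 43 genes and named from cell type markers, with the suffix like. T-like cells numbered 637 in the CKO-labelled library and 385 in the WT-labelled library, B-like cells 3948 and 736, and plasma-like cells 514 and 245. Cells from mixed clusters, 12.2% of the CKO-labelled library and 26.0% of the WT-labelled library, entered no class. Unnamed clusters were also outside the named classes. The largest held 580 cells (5.30%) of the CKO-labelled library and 251 cells (8.58%) of the WT-labelled library. Ptprc, the leukocyte marker CD45, was detected in 95.1 and 94.8% of T-like cells and Cd3e in 68.4 and 74.3% of them. Transcripts of other cell types moved with the label inside T-like cells. The neutrophil gene S100a8 stood there at 60.3 counts per 1000000 UMIs of the class (CPM) in the CKO-labelled library and 11 CPM in the WT-labelled library, and the plasma cell gene Jchain at 152 and 815 CPM. Their part in the results below was not tested. Rpa1 itself stood at 54.6 CPM (163 UMIs) in T-like cells of the CKO-labelled library and 42.6 CPM (97 UMIs) in those labelled WT, a log2 ratio of 0.36 (-0.01 to 0.74). A 3′ tag need not lie in the deleted part, so this does not check the deletion.

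All intervals are 95% intervals and cover counting error only. Most members were higher in cells with division transcripts than in the rest, in each library. Division-gene cells were those with 2 or more UMIs from a list of 26 mitosis genes after each cell was thinned to 1000 UMIs, none of which is a member. They numbered 259 beside 10346 other cells in the CKO-labelled library and 85 beside 2541 in the WT-labelled library. They were deeper than the rest, with medians of 9495 against 3368.5 UMIs in the CKO-labelled library and of 13462 against 4438 UMIs in the WT-labelled library. The part of depth in the ratios was not tested. Of 43 members read at 20 or more UMIs in the CKO-labelled library, 33 were at least 1.5-fold higher in division-gene cells and 0 at least 1.5-fold lower, where all genes gave 27.9 and 16.8%. In the WT-labelled library, 32 of 42 were higher and 0 lower, where all genes gave 28.6 and 20.4%. The members' median log2 ratio was 1.36 in the CKO-labelled library and 1.5 in the WT-labelled library, beside 0.13 and 0.12 over all genes. Of the 42 read in each library, 29 were 1.5-fold higher in both libraries, 12 were 4-fold higher in both, and 7 were within 1.5-fold in both.

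The 8 members with the highest mean ratio follow, most of them known from repair at replication forks. Fancd2, the crosslink repair protein that is ubiquitinated at stalled forks, stood at 15.6 CPM in division-gene cells and 0.553 CPM in the rest of the CKO-labelled library, and at 15.1 and 0.829 CPM in the WT-labelled library. Clspn, the claspin adaptor that carries the ATR signal to CHK1, stood at 125 CPM in division-gene cells and 4.92 CPM in the rest of the CKO-labelled library, and at 122 and 7.28 CPM in the WT-labelled library. The log2 ratios were 4.82 and 4.19 for Fancd2 and 4.67 and 4.07 for Clspn, so both genes were far above the median of all genes in each library. The next were Rad51ap1 and Brca1, which act in homologous recombination, at log2 ratios of 4.63 and 4.28 in the CKO-labelled library and 3.61 and 3.93 in the WT-labelled library. Exo1, a resection nuclease, followed at 3.74 and 3.95. H2afx, which encodes the histone variant H2AX, stood at 217 CPM in division-gene cells and 18.4 CPM in the rest of the CKO-labelled library, and at 282 and 23.6 CPM in the WT-labelled library. Chek1, the checkpoint kinase activated by ATR, was higher at log2 ratios of 3.02 and 3.98, and Bard1, the partner of BRCA1, at 3.48 and 3.25. Xrcc3, a recombination gene, had log2 ratios of 3.74 and 3.73 but only 15 UMIs in the WT-labelled library.

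The 4 members with the lowest mean ratio were Atr, Trp53bp1, Rnf8 and Rad52. Atr stood at 19.5 CPM in division-gene cells and 20.8 CPM in the rest of the CKO-labelled library, and at 16.5 and 17.4 CPM in the WT-labelled library, log2 ratios of -0.09 (-0.49 to 0.29) and -0.08 (-0.74 to 0.52). Trp53bp1, the 53BP1 protein that shields broken ends from resection, had ratios of -0.44 (-1.09 to 0.15) and -0.10 (-0.88 to 0.59). Rnf8, a ubiquitin ligase that marks damaged chromatin, had ratios of -0.02 and 0.09, and Rad52, a recombination mediator, 0.39 and -0.55. Every interval of these 4 included equal levels. By role, the medians over members read in each library were 2.56 and 1.95 for recombination and crosslink repair, 1.32 and 1.12 for the ATR checkpoint, 0.99 and 0.83 for ATM and chromatin, and 0.74 and 1.55 for end joining and single-strand breaks.

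**Figure D1:**
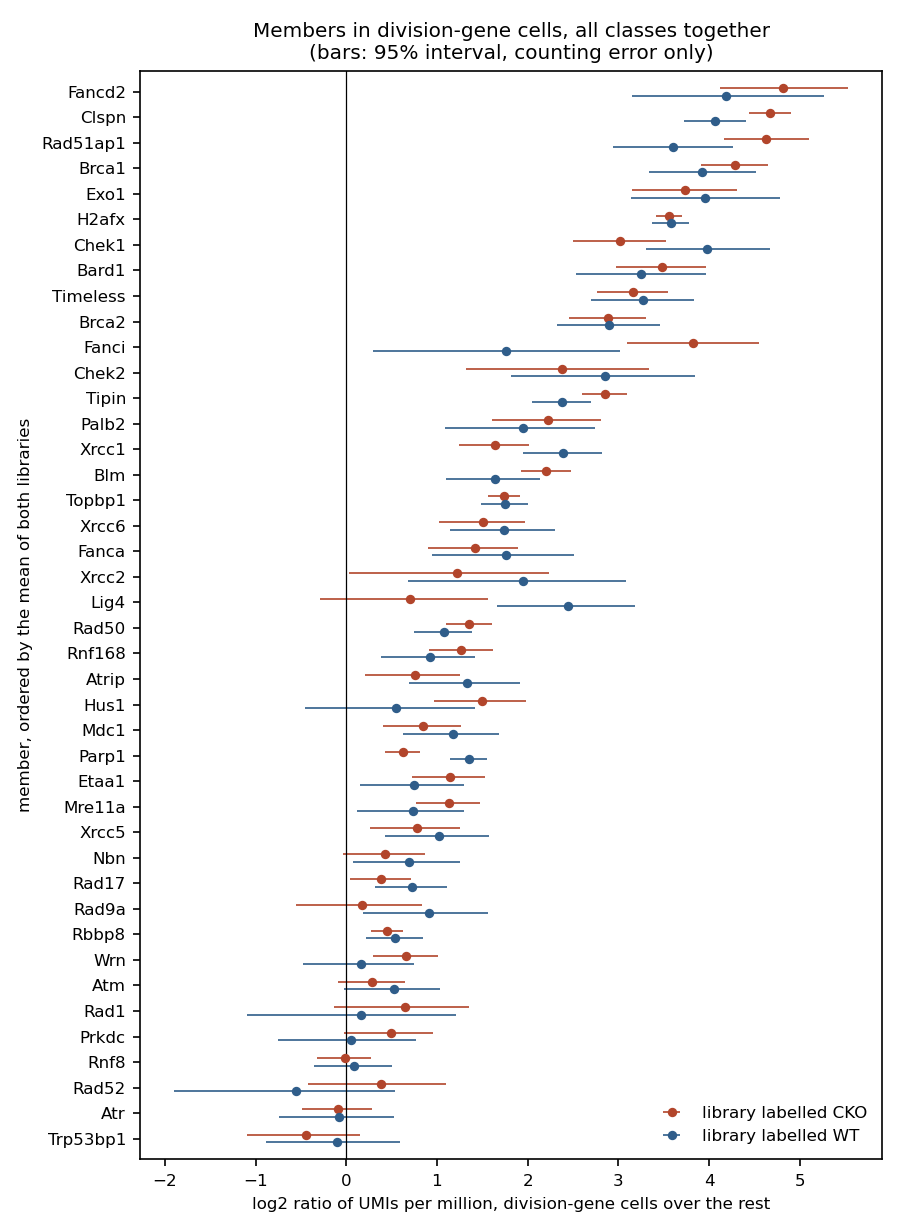
Log2 ratio of CPM in division-gene cells over the rest, for the 42 members with 20 or more UMIs in each library, in the CKO-labelled library and the WT-labelled library, with 95% counting intervals as bars. Fancd2 and Clspn lie at the top with ratios over 4 in both libraries, while Atr and Trp53bp1 lie near 0.

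Cell classes take different shares of the division-gene cells, so the ratio over all cells mixes classes. When the rest was weighted to the classes of the division-gene cells and the cycling cluster was left out, the median was 1.09 in the CKO-labelled library and 0.59 in the WT-labelled library. With that cluster kept, the weighted medians were 0.74 in the CKO-labelled library and 0.0010 in the WT-labelled library. In the WT-labelled library the cluster gave 43 division-gene cells, set against only 10 other cells, with members at 1814 and 1964 CPM. In other WT groups with more than 1 division-gene cell, members summed to 1228 CPM in division-gene T-like cells against 668 CPM in the rest. The sums were 903 against 711 CPM in B-like cells and 1370 against 569 CPM in cells of the mixed clusters. Neutrophil-like cells went the other way, at 167 against 283 CPM with 5 division-gene cells. WT groups with 1 such cell lay on both sides. In the CKO-labelled library neutrophil-like cells were also lower, at 127 against 198 CPM with 36 division-gene cells. Plasma-like (150 and 176), monocyte and macrophage-like (309 and 313) and 1 unnamed cluster's cells (208 and 411 CPM) were lower too. The other CKO groups were higher. Within T-like cells alone there were 34 division-gene cells in the CKO-labelled library (5.42%, interval 3.78 to 7.50%) and 9 in the WT-labelled library (2.37%, 1.09 to 4.45%), and without thinning 16 and 10.1% of T-like cells held 2 or more division UMIs. There, 14 of 30 members were higher and 1 lower in the CKO-labelled library, where all genes gave 24.3 and 20.3%, and 10 of 24 were higher and 3 lower in the WT-labelled library, where all genes gave 25.0 and 26.6%. The members named next were ranked by mean ratio among those read, and with a ratio, in both libraries. Clspn stood at 124 CPM in division-gene T-like cells and 13.6 CPM in the rest of the CKO-labelled library, and at 109 and 11.6 CPM in the WT-labelled library. H2afx had log2 ratios of 2.43 and 2.58, Tipin, of the fork protection complex, 2.96 and 1.31, and Topbp1, the activator of ATR, 1.44 and 0.79. Rad50 was next, at 1.66 in the CKO-labelled library and -0.02 in the WT-labelled library, and then came Parp1, Prkdc and Atm. Their ratios were 0.86 and 0.64 for Parp1, 1.08 and 0.41 (-1.97 to 2.14, on 3 UMIs) for Prkdc, and 0.18 and 1.19 for Atm. Members read only in the CKO-labelled library were not ranked. Of these, Rad51ap1 (4.37, 2.94 to 6.01), Brca1 (3.87), Bard1 (2.83), Timeless (2.47) and Xrcc1 (2.03) had larger ratios there than Rad50. Atrip and Xrcc6 were not ranked either. Both had 0 UMIs in division-gene cells of the CKO-labelled library, and ratios of 0.85 and 1.78 in the WT-labelled library. The 4 lowest of the ranked members rested on 1 to 10 UMIs each in division-gene cells, and all their intervals included equal levels. They were Atr at 0.05 (-1.23 to 1.12) and -1.89 (-7.23 to 0.68), Rnf168 at 0.51 (-0.70 to 1.55) and -2.18 (-7.51 to 0.38), Mdc1 at -1.09 (-4.19 to 0.88) and -0.57 (-3.69 to 1.41), and Etaa1 at -0.16 (-1.27 to 0.78) and -0.99 (-3.31 to 0.63). Summed over members, T-like cells held 631, 718, 1309 and 1611 CPM at 0, 1, 2 to 3 and 4 or more division UMIs in the CKO-labelled library, and 625, 1039, 969 and 1623 CPM in the WT-labelled library. B-like cells had only 13 and 9 division-gene cells, in which the highest member reached 10 and 8 UMIs. There 18 of 39 members were higher and 2 lower in the CKO-labelled library, where all genes gave 27.0 and 12.2%, and 7 of 28 were higher and 1 lower in the WT-labelled library, where all genes gave 23.8 and 14.0%.

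Promoters are shown because members were high together in division-gene cells. E2F factors, which drive S phase genes, are known to bind sites related to TTTNNCGC, and CCAAT and TTTGAA are letters of further promoter elements of cell cycle genes. Of the 43 members, 32 matched a RefSeq promoter entry (GRCm38.p6, 250 bases before to 50 after the start), and Exo1, Rbbp8, Rad50, Nbn, Wrn, H2afx, Rad9a, Xrcc2, Prkdc, Fancd2 and Tipin had none. The letters TTTNNCGC occurred on either strand in 4 of the 8 matched members that were 4-fold higher in division-gene cells of each library (Clspn, Bard1, Brca2 and Chek2), in 4 of the other 24 (Etaa1, Mdc1, Topbp1 and Xrcc6), and in 5.17% of all 32851 promoters. The letters CCAAT, read the same way, were in 17 of the 32 and in 37.4% of all promoters. By the same split, 4 of the 8 high members and 13 of the other 24 held them. TTTGAA was in 3 of the 32 and in 17.9% of all, with 1 of the 8 and 2 of the other 24. A member counted once if any of its entries held the letters, whereas all promoters were counted per entry. Brca1, Rad51ap1, Chek1 and Timeless, the other 4 of the 8 high members, hold no TTTNNCGC match in this window. Capitals mark TTTNNCGC or its reverse complement in the promoters of 3 high members that hold a match. The flat member Atr, which holds no match in this window, follows. These 4 printed promoters are examples and do not stand for all high or flat members. The promoters lie at chr4:126556730-126557029 on the plus strand (Clspn), chr1:71102923-71103222 on the minus strand (Bard1), chr5:150522371-150522670 on the plus strand (Brca2) and chr9:95857347-95857646 on the plus strand (Atr). A match describes the letters and is not a bound site.
Clspn: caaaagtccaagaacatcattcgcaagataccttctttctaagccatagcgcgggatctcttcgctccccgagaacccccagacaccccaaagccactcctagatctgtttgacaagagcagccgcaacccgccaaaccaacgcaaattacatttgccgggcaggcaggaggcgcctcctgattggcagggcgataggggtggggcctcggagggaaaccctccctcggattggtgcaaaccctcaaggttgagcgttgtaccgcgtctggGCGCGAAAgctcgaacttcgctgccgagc
Bard1: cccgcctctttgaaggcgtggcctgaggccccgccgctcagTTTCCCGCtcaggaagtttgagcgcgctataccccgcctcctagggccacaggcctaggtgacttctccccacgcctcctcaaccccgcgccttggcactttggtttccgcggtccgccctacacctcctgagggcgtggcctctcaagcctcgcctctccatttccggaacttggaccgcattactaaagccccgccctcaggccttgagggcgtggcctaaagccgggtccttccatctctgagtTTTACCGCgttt
Brca2: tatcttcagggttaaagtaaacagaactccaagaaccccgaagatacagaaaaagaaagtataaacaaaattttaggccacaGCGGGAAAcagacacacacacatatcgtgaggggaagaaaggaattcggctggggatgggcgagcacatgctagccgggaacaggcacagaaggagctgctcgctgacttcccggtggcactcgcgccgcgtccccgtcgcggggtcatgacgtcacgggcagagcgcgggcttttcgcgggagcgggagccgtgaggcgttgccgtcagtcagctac
Atr: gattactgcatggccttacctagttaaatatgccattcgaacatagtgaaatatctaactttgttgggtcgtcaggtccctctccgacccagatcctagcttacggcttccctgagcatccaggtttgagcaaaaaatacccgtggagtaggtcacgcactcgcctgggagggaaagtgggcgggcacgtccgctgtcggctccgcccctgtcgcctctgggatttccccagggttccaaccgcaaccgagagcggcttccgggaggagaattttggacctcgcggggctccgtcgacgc

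Each member was then read across cell classes, every library on its own. In T-like cells members summed to 738 CPM (708 to 770) in the CKO-labelled library and 719 CPM (685 to 755) in the WT-labelled library, in B-like cells to 703 and 716 CPM, in plasma-like cells to 176 and 218 CPM, and in neutrophil-like cells to 196 and 275 CPM. Of 31 members read in both classes, 27 were at least 1.5-fold lower in plasma-like than in B-like cells in each library and 0 higher, where all genes gave 65.0 and 10.2%. Plasma-like cells spend many of their UMIs on immunoglobulin transcripts, with Jchain alone at 47492 and 53436 CPM. Neutrophil-like cells had 20 of 25 members lower than T-like cells and 0 higher in each library, where all genes gave 60.0 and 13.2%. NK-like cells had 2 of 25 lower, Etaa1 and Atm, and 0 higher, where all genes gave 8.12 and 5.18%. A small unnamed cluster of cycling cells held the highest level, over the classes of 20 or more cells, of 25 of 43 members in the CKO-labelled library and of 25 in the WT-labelled library, 20 of them in both. Of 14149 genes with 20 or more UMIs, 12.5% were highest there in the CKO-labelled library, 20.2% in the WT-labelled library and 9.17% in both. Over B-like cells this cluster had 18 of 39 members higher and 3 lower (Atr, Trp53bp1 and Prkdc) in each library, where all genes gave 20.7 and 20.9%.

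**Figure D2:**
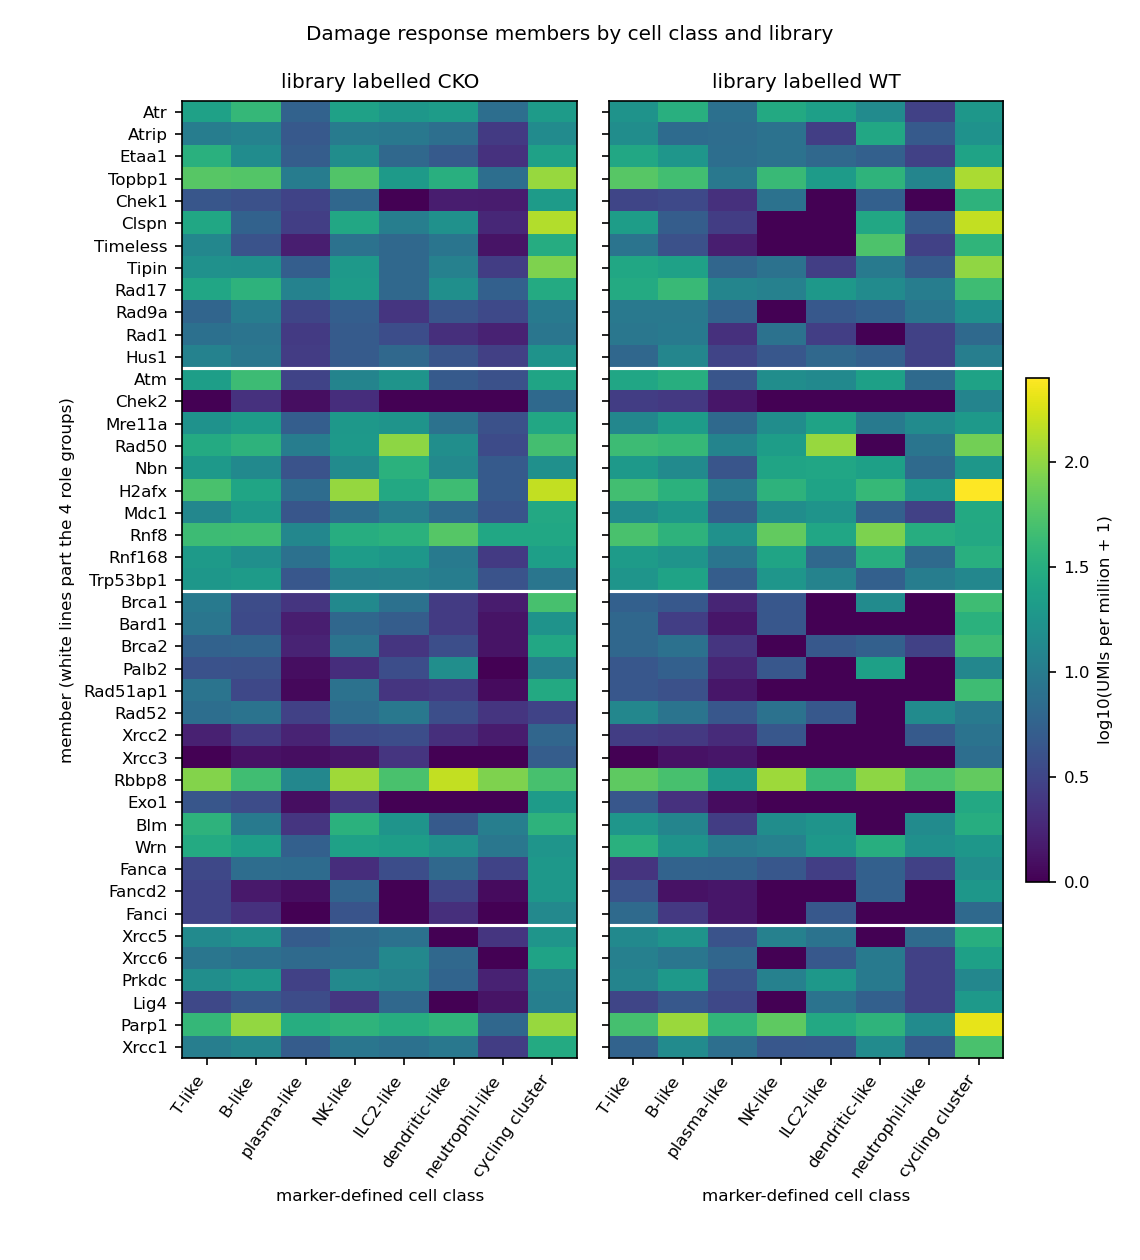
Levels of all 43 members as log10 of CPM plus 1, by role group (rows) and cell class (columns), in the CKO-labelled library on the left and the WT-labelled library on the right. The cycling cluster column holds the highest level of at least 25 members in each panel, and the plasma-like and neutrophil-like columns are low for most rows.

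Several members had a class pattern of their own. Rad50, the coiled-coil ATPase of the break-sensing complex, stood at 96.9 CPM (71 UMIs) in ILC2-like cells and 28.1 CPM in T-like cells of the CKO-labelled library, and at 107 CPM (59 UMIs) and 43.0 CPM in the WT-labelled library, log2 ratios of 1.79 (1.31 to 2.26) and 1.32 (0.82 to 1.80). ILC2 are innate lymphocytes that secrete type 2 cytokines. Rad50 was the 1 member of 24 higher in ILC2-like than in T-like cells in each library, where all genes gave 6.25%, and 9 were lower, where all genes gave 26.8%. Between the libraries, 0 of 11 members read in ILC2-like cells were 1.5-fold higher or lower, where all genes gave 14.7 and 9.78%. Rad50 (chr11:53649519-53707319, GRCm38, minus strand, GENCODE vM21) lies between Il13, which ends at 53634702, and Il5, which starts at 53720794. Il5 stood at 756 and 1312 CPM in ILC2-like cells and at 1.67 and 5.27 CPM in T-like cells, and Il13 at 351 and 630 CPM in ILC2-like cells and at 1.0 and 0.439 CPM in T-like cells. Both are leading genes of the cluster named ILC2, so their high level there is no separate result. Beyond Il13, Il4 stood at 88.7 and 267 CPM in ILC2-like cells and at 0.669 and 0 CPM in T-like cells. Kif3a, further out, stood at 1.36 and 25.4 CPM and at 5.02 and 3.95 CPM. A link between Rad50 and its neighbours was not tested.

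Between T-like and B-like cells, 4 of 32 members were at least 1.5-fold higher in T-like cells of each library and 2 lower, where all genes gave 19.6 and 11.4%. The 4 were Clspn, Timeless, Etaa1 and Blm, of which Blm had a WT interval that included 0 (0.60, -0.08 to 1.29). Clspn stood at 26.1 CPM in T-like and 4.74 CPM in B-like cells of the CKO-labelled library, and at 20.6 and 4.15 CPM in the WT-labelled library. Division-gene cells were 5.42 and 2.37% of T-like cells but 0.338 and 1.26% of B-like cells. Outside division-gene cells Clspn stood at 13.6 and 3.89 CPM in the CKO-labelled library and at 11.6 and 3.94 CPM in the WT-labelled library. The part of division state in the other ratios between these classes was not tested. Etaa1, an RPA-binding activator of ATR, stood at 32.5 and 13.6 CPM in the CKO-labelled library and 26.8 and 17.2 CPM in the WT-labelled library. The 2 lower were Parp1, the enzyme that marks single-strand breaks with poly(ADP-ribose), and Atr. Parp1 stood at 38.8 CPM in T-like and 101 CPM in B-like cells of the CKO-labelled library, and at 47.8 and 109 CPM in the WT-labelled library. Rbbp8, the resection factor CtIP, was high in dendritic-like cells at 150 and 97.1 CPM and in NK-like cells at 113 and 111 CPM, against 12 and 18.1 CPM in plasma-like cells.

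**Figure D3:**
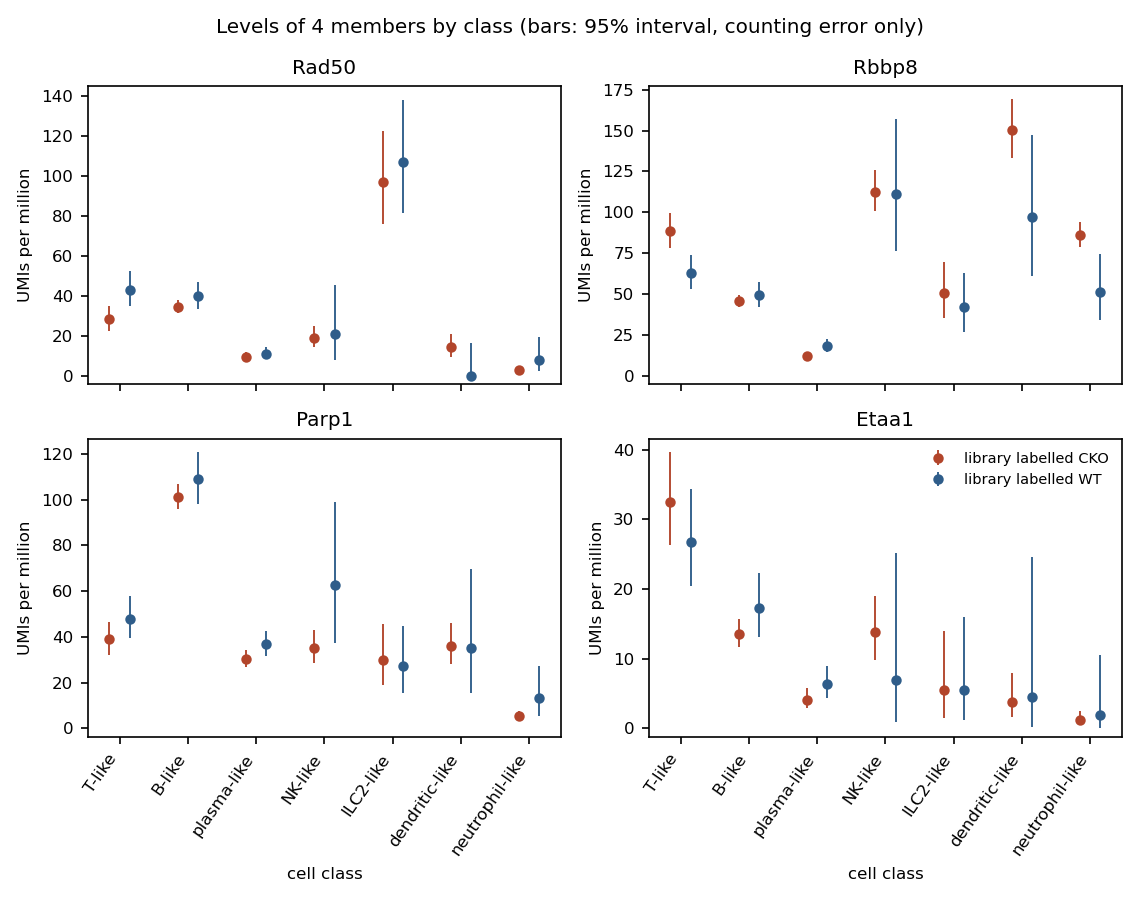
CPM of Rad50, Rbbp8, Parp1 and Etaa1 in 7 cell classes, with the CKO-labelled library left of the WT-labelled library and 95% counting intervals as bars. Rad50 peaks in ILC2-like cells, Parp1 in B-like cells and Etaa1 in T-like cells of both libraries.

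In T-like cells, the cells named in the title, 33 of the 43 members had 20 or more UMIs, and their median log2 ratio of CKO over WT was -0.00, beside 0.05 over 9183 genes. Of the 33, 6 were at least 1.5-fold higher and 4 at least 1.5-fold lower, 18.2 and 12.1%, where all genes gave 11.4 and 7.76%. For 3 members the interval lay above 0 and for 2 below, 9.09 and 6.06%, where all genes gave 14.2 and 8.71%. The count of higher members was 12 when each cell was called by its own markers, 3 without division-gene cells and 2 at a minimum of 50 UMIs, which also left 2 lower. Calling cells by their own markers moved Brca1 to 2.85, Rad51ap1 to 1.58, H2afx to 1.24, Hus1 to 0.45, Tipin to -0.23, Rad52 to -0.47 and Prkdc to -0.07, against the ratios given below. The makeup of T-like cells differed with the label: a subset led by Gzma and Tyrobp had 49 cells in the CKO-labelled library and 1 in the WT-labelled library, one led by Tnfsf8 and Cd40lg 118 and 24, and one led by Igfbp4 and Lef1 62 and 103. Weighting the subsets alike gave 5 higher and 4 lower members and put their median at 0.04. The part of this makeup in single ratios was not tested. The unread member closest to the threshold was Fanci, a crosslink repair partner of FANCD2, with 19 UMIs, and the read member closest to it was Brca2 with 26.

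Among ATR checkpoint genes, Atr stood at 22.8 CPM in the CKO-labelled library and 16.2 CPM in the WT-labelled library, a log2 ratio of 0.49 (-0.11 to 1.11). Chek1 was at 3.35 CPM (10 UMIs) and 2.19 CPM (5 UMIs), too few to read. Hus1, of the clamp loaded at damage, stood at 10.7 CPM (32 UMIs) in the CKO-labelled library and 5.27 CPM (12 UMIs) in the WT-labelled library, a ratio of 1.02 (0.03 to 2.12). Timeless, the fork protection partner of Tipin, was at 12.1 and 7.46 CPM, with a ratio of 0.69 (-0.18 to 1.62). Tipin stood at 15.4 CPM (46 UMIs) in the CKO-labelled library and 25.9 CPM (59 UMIs) in the WT-labelled library, a ratio of -0.75 (-1.34 to -0.17). Timeless and Tipin, whose proteins form 1 complex, thus lay on opposite sides of 0. Rad9a, also of the clamp, had 5.02 and 8.34 CPM, a ratio of -0.73 (-1.81 to 0.32). The rest of the group lay within 1.5-fold: Atrip at -0.58, Etaa1 at 0.28, Topbp1 at -0.00, Clspn at 0.34, the clamp loader gene Rad17 at -0.16 and the clamp gene Rad1 at -0.24.

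Among ATM and chromatin genes, Rad50 stood at 28.1 CPM (84 UMIs) in the CKO-labelled library and 43.0 CPM (98 UMIs) in the WT-labelled library, a ratio of -0.61 (-1.05 to -0.18). Its complex partners were at ratios of 0.41 (Mre11a) and -0.04 (Nbn), so Rad50 alone of the complex was past 1.5-fold. Rad50 was read in only 2 T-like subsets, at 73.0 and 59.0 CPM in the cycling one and at 23.6 and 68.8 CPM in a subset led by Klra7 and Kit. In a subset led by Foxp3 and Il1rl1 it had 0 UMIs in 17 cells of the CKO-labelled library and 10 UMIs in 13 cells of the WT-labelled library. Atm stood at 21.1 and 25.5 CPM, a ratio of -0.27 (-0.81 to 0.27). Chek2, the kinase below ATM, had 0 UMIs in the CKO-labelled library and 4 UMIs in the WT-labelled library, at which no ratio can be given. H2afx stood at 49.9 and 46.1 CPM, a ratio of 0.11 (-0.26 to 0.49), and Trp53bp1 at 17.7 and 16.7 CPM, a ratio of 0.09 (-0.54 to 0.73). The scaffold gene Mdc1 (-0.18) and the ubiquitin ligase genes Rnf8 (-0.25) and Rnf168 (-0.02) were within 1.5-fold.

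Among recombination genes, Blm, the helicase mutated in Bloom syndrome, stood at 34.5 CPM (103 UMIs in 75 cells) in the CKO-labelled library and 17.1 CPM (39 UMIs in 32 cells) in the WT-labelled library, a ratio of 1.01 (0.47 to 1.58). Brca1 had 8.70 and 4.39 CPM, a ratio of 0.99 (-0.11 to 2.20), and Rad51ap1 7.36 and 3.51 CPM, a ratio of 1.07 (-0.15 to 2.45). Rad52 stood at 6.36 CPM (19 UMIs) in the CKO-labelled library and 11.9 CPM (27 UMIs) in the WT-labelled library, a ratio of -0.90 (-1.83 to 0.00). Rbbp8 stood at 88.4 and 62.8 CPM, within 1.5-fold, with an interval of 0.19 to 0.80 around 0.49. Bard1 (0.55), Brca2 (-0.17) and the helicase gene Wrn (-0.17) were within 1.5-fold, while Palb2, Xrcc2, Xrcc3, Exo1, Fanca, Fancd2 and Fanci had fewer than 20 UMIs, Xrcc3 none at all. Among end joining and single-strand break genes, Xrcc1, the scaffold of single-strand break repair, stood at 9.71 CPM (29 UMIs) in the CKO-labelled library and 4.83 CPM (11 UMIs) in the WT-labelled library, a ratio of 1.01 (-0.04 to 2.16). Prkdc, the DNA-dependent kinase of end joining, had 14.4 and 11 CPM, a ratio of 0.39 (-0.35 to 1.16), and Parp1 38.8 and 47.8 CPM, a ratio of -0.30 (-0.69 to 0.09). The Ku genes Xrcc5 (0.04) and Xrcc6 (-0.39) were within 1.5-fold, and the ligase gene Lig4 had 12 UMIs.

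**Figure D4:**
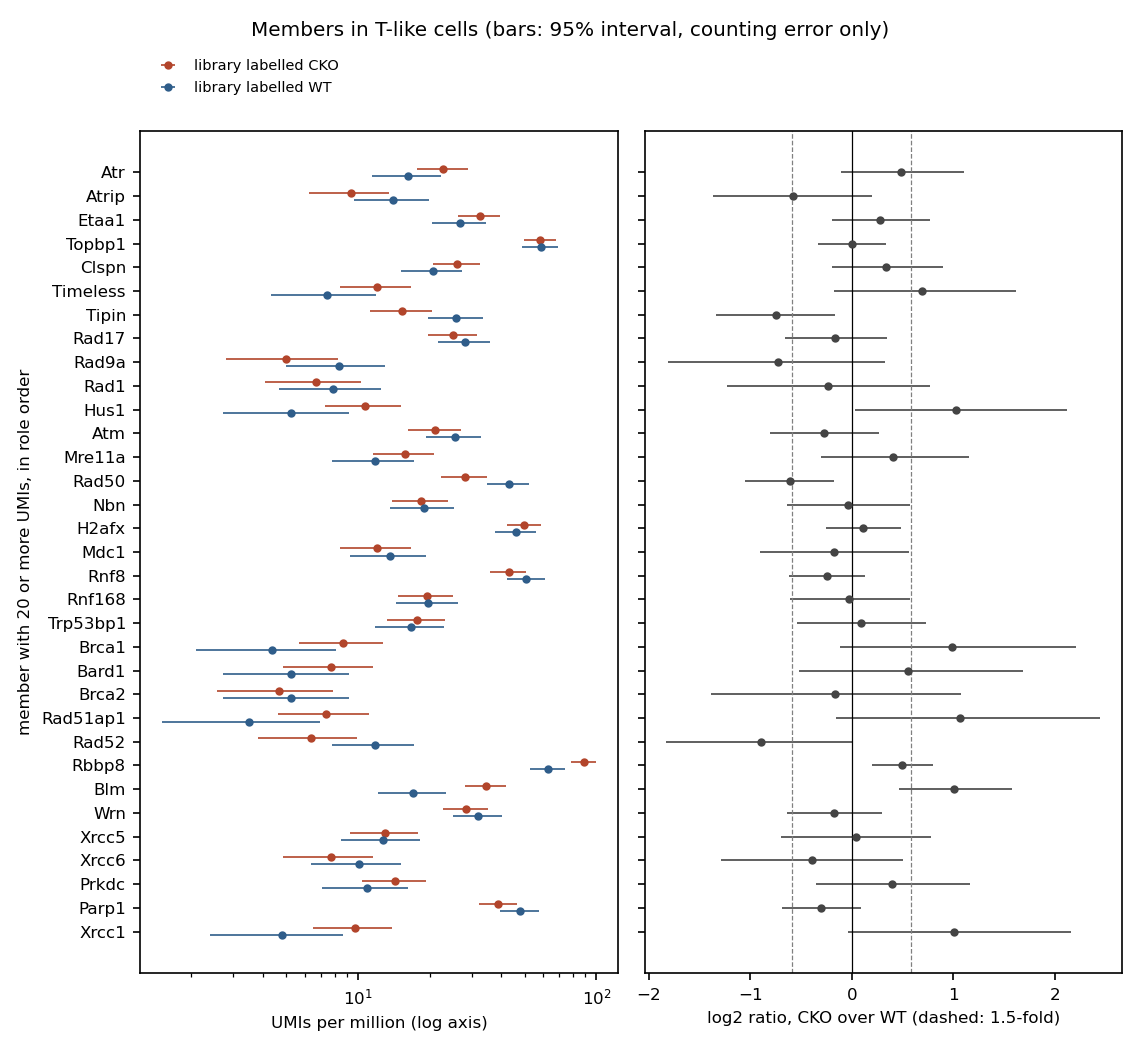
The 33 members with 20 or more UMIs in T-like cells, as CPM in the CKO-labelled library and the WT-labelled library (left) and as their log2 ratio (right), with 95% counting intervals as bars and dashed lines at 1.5-fold. Tipin and Rad50 lie below 0 with their whole intervals, and Hus1, Rbbp8 and Blm above.

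The label's difference in T-like cells was also read separately in division-gene cells and in the rest. The rest still held cells with 1 thinned division UMI, 56 labelled CKO and 31 labelled WT, with members at 718 and 1039 CPM. Division state was thus not matched between the labels there, and its part in these ratios was not tested. Outside division-gene cells the median was -0.09, and of 30 members 3 were 1.5-fold higher and 4 lower, where 8877 genes gave 11.3 and 8.45% and a median of 0.04. Tipin there stood at 8.71 CPM in the CKO-labelled library and 22.8 CPM in the WT-labelled library, a ratio of -1.39 (-2.17 to -0.64), and Rad50 at 22.3 and 43.1 CPM, a ratio of -0.95 (-1.45 to -0.46). Blm stood at 28.4 and 17.5 CPM, a ratio of 0.70 (0.11 to 1.32). In division-gene T-like cells Tipin had 67.6 and 56.7 CPM, a ratio of 0.26 (-0.81 to 1.40), and Rad50 70.6 and 42.5 CPM, a ratio of 0.73 (-0.42 to 2.02). Blm there had 28 UMIs in 34 cells of the CKO-labelled library and 3 UMIs in 9 cells of the WT-labelled library.

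In B-like cells 41 members were read, and 2 were at least 1.5-fold higher and 2 lower (4.88% each), where all genes gave 6.14 and 8.17%. The interval lay above 0 for 4 members (Atrip, Topbp1, Atm and Rnf8) and below 0 for 2 (Tipin and H2afx), where all genes gave 8.47 and 13.5%. Their median was -0.10, beside -0.04 over all genes. Atrip stood at 10.5 CPM (140 UMIs) in the CKO-labelled library and 5.93 CPM (20 UMIs) in the WT-labelled library, a ratio of 0.83 (0.15 to 1.58), and Exo1 had 35 and 4 UMIs, a ratio of 1.15 (-0.33 to 3.10). When cells were called by their own markers, Exo1 turned to -0.70, and Atrip was at 0.23 and H2afx at -0.94. Tipin was lower here too, at 15.1 CPM (200 UMIs) and 22.8 CPM (77 UMIs), a ratio of -0.60 (-0.99 to -0.20). Palb2, which joins BRCA1 and BRCA2, had 2.94 and 4.45 CPM, a ratio of -0.60 (-1.49 to 0.37). H2afx was within 1.5-fold at 24.8 and 33.2 CPM, a ratio of -0.42 (-0.74 to -0.10). The germinal centre gene Rgs13 stood at 0.904 and 15.7 CPM in these cells, and 12 of 19 division genes read were lower in the CKO-labelled library. Their part in the members' ratios was not tested.

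In plasma-like cells, the antibody-secreting end of the B lineage, 30 members were read, of which 1 was at least 1.5-fold higher and 9 lower (3.33 and 30%), where all genes gave 4.91 and 12.9%. The interval lay below 0 for 3 members (Rad9a, Rbbp8 and Wrn), 10%, and above 0 for 0, where all genes gave 18.1 and 4.99%. The median was -0.32, beside -0.14 over all genes. Chek1 had 17 and 6 UMIs, a ratio of 0.82 (-0.59 to 2.45). Rad9a stood at 2.17 CPM (18 UMIs) in the CKO-labelled library and 4.82 CPM (25 UMIs) in the WT-labelled library, a ratio of -1.15 (-2.12 to -0.22). Wrn stood at 4.45 CPM (37 UMIs) and 8.87 CPM (46 UMIs), a ratio of -1.0 (-1.66 to -0.34). Rad52 (-0.85), Atrip (-0.73), Xrcc1 (-0.72), Atm (-0.68), Prkdc (-0.68) and Etaa1 (-0.64) had intervals that included 0, on 32 to 67 UMIs each, and Rbbp8 was at -0.59 (-1.01 to -0.17). By own markers of each cell, Atm was at 0.03, Prkdc at -0.05 and Rad9a at -1.63. With libraries scaled by the median of gene ratios, 5 rather than 9 members were lower.

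The cycling cluster, led by Pclaf, Top2a and Ighg2b and holding B lineage transcripts, had 84 cells in the CKO-labelled library and 53 in the WT-labelled library. Of 40 members read, 2 were at least 1.5-fold higher and 14 lower (5 and 35.0%), where all genes gave 11.9 and 18.9%, and their median was -0.24, beside -0.11. H2afx stood at 152 CPM (294 UMIs) in the CKO-labelled library and 309 CPM (389 UMIs) in the WT-labelled library, a ratio of -1.03 (-1.25 to -0.81). Parp1 stood at 107 CPM (207 UMIs) and 204 CPM (256 UMIs), a ratio of -0.93 (-1.20 to -0.66). The interval lay below 0 for 10 of the 40 and above 0 for 0, where all genes gave 17.6 and 9.72%. Bard1 (-1.06), Xrcc5 (-0.86), Chek1 (-0.84), Xrcc1 (-0.82), Brca2 (-0.71), Rad50 (-0.69), Rad51ap1 (-0.68) and Rad17 (-0.62) were the other 8 with whole intervals below 0. Chek2 (-0.97), Lig4 (-0.90), Rad9a (-0.78) and Trp53bp1 (-0.62) were past 1.5-fold with intervals that included 0, whereas Clspn (-0.20), Timeless (-0.29), Brca1 (0.18) and Fancd2 (0.00) were within 1.5-fold. Fanci (1.15) and Hus1 (0.75) were higher, with intervals that included 0. These members were chosen after their values were seen.

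The cells of this cluster differed with the label in more than the members. Mef2b stood at 12.9 CPM in the CKO-labelled library and 103 CPM in the WT-labelled library, and the B cell gene Ms4a1 at 176 and 542 CPM. Rgs13 had no UMI in the CKO-labelled library and stood at 126 CPM in the WT-labelled library. Ighm stood at 7775 and 404 CPM and the neutrophil gene S100a8 at 152 and 8.75 CPM. The division genes were also lower, 13 of 26 by 1.5-fold and with a median of -0.60. Among cells of the cluster with division UMIs, 7 rather than 14 members were lower. The part of the cluster's makeup in the members' ratios was not tested.

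**Figure D5:**
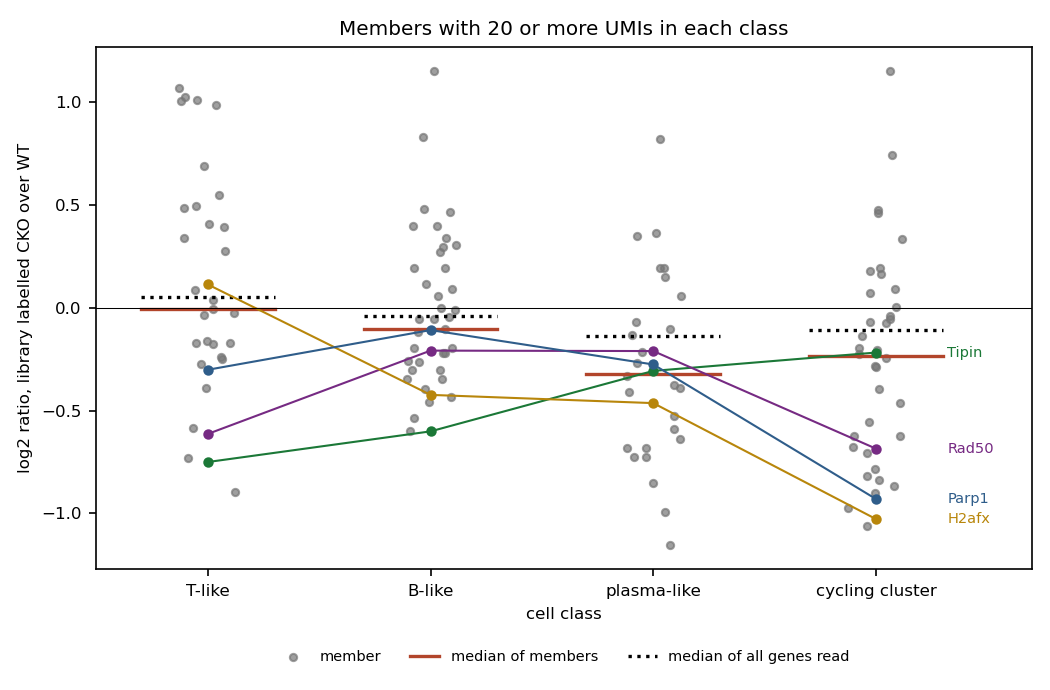
Log2 ratio of CKO over WT for each member with 20 or more UMIs in 4 classes, with the median of members (solid bar) and of all genes read (dotted bar). Lines follow 4 members: Tipin and Rad50 stay below 0 in every class, and H2afx and Parp1 are lowest in the cycling cluster.

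Across these 4 classes 26 members were read in all. Tipin, Rad17, Rad50, Nbn, Rnf168 and Parp1 had ratios below 0 in all 4, and 0 members had ratios above 0 in all 4. That is 23.1 and 0% of the members, where 7338 genes gave 13.7 and 5.82%. The classes come from the same pair of libraries and are not replicates of the label. NK-like cells numbered 483 and 51, with division-gene cells at 8.02 and 1.96%. Of 26 members read there, 9 were 1.5-fold higher and 5 lower, where all genes gave 18.6 and 13.9%. Their median was 0.39, beside 0.02 over all genes. In neutrophil-like cells 3 of 14 were higher and 9 lower, where all genes gave 14.0 and 38.6%. Members past 1.5-fold in these classes are not named here, and the part of division state was not tested. Summed over all kept cells, 1 member was at least 1.5-fold higher and 10 lower, with a median of -0.46, where all genes gave 17.3 and 12.5% and a median of -0.06. The 1 higher was Rbbp8, at 74.0 CPM in the CKO-labelled library and 46.9 CPM in the WT-labelled library. Among classes high in Rbbp8, several had larger shares of the CKO-labelled library, 1.75 against 0.718% for dendritic-like, 4.99 against 0.376% for monocyte and macrophage-like, and 17.5 against 6.91% for neutrophil-like cells. T-like cells, at 88.4 and 62.8 CPM, had the smaller share there, 5.82 against 13.2%. The part of these shares in the ratio over all cells was not tested.

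Other repair genes were read in T-like cells for comparison. All genes there gave 11.4% at least 1.5-fold higher and 7.76% lower, the shares to set beside each count below. Nucleotide excision repair had 3 of 14 read genes higher and 0 lower, with a median of 0.19. They were Ddb2, a damage sensor (14.4 and 6.14 CPM, ratio 1.23, 0.33 to 2.21), Ercc1 (0.64) and Xpa (0.59), while Xpc was at -0.55. Base excision repair had 2 of 8 lower, Ung (-0.95) and Apex1 (-0.60), with Aptx at 0.53. Further recombination and crosslink genes had 1 of 13 higher, Fancc (1.14), and 2 lower, Fancf (-0.67) and Fan1 (-0.65), with Fancm at 0.54. Mismatch repair had 0 of 6 past 1.5-fold, with Pms1 at -0.57, Msh3 at -0.54 and Msh6 at 0.46. Other end joining genes had 0 of 4, with Dclre1c at -0.58, Paxx at 0.41, Xrcc4 at 0.17 and Polm at -0.14, and other checkpoint genes had 0 of 11, with Cdc25b at 0.54, Cdc25a at -0.51, Wee1 at -0.39 and Rfc4 at 0.34. Of the RPA subunits, Rpa2 was at 49.5 and 32.5 CPM, a ratio of 0.61 (0.20 to 1.03), and Rpa3 at 18.7 and 29.0 CPM, a ratio of -0.63 (-1.17 to -0.09). Rpa3 was lower in B-like (-0.72), plasma-like (-0.78) and cycling cells (-1.04) as well. The division list had 6 of 26 higher and 0 lower, led by Cenpf (38.5 and 16.2 CPM, 1.25) with Hmmr (1.01), Cdk1 (0.74) and Ckap2l (0.68), and the replication list 2 of 24 higher, Cdc6 (1.07) and Cdc45 (0.79), and 1 lower, Mcm4 (-0.72), with Cdt1 at -0.56.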

How the data were processed

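The deposited values are UMI counts, whole numbers per gene and barcode without normalization, per the file headers. Versions disagree: Cell Ranger is 6.0.1 in the headers and 5.0.0 in the submitters' processing notes, which also list Seurat 3.2.3 and mm10. The sources used here do not say how barcodes were called. Barcodes with 200 or more genes and up to 20% mitochondrial UMIs were kept (11155 labelled CKO and 2925 labelled WT), and Scrublet marked 213 and 1 as doublets, fewer than its expected 0.8% per 1000 cells, which were left out. The libraries shared 6 barcodes. Both were clustered together in scanpy 1.11.5 (2000 variable genes without the members, 30 components, Leiden resolution 2), and clusters were named from marker lists. The thresholds for naming, for mixed clusters and for a second clustering within classes were set with the clusters in view.

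UMIs were summed per class and library and given per 1000000 UMIs, with exact Poisson, binomial and conditional intervals. A gene was read at 20 or more UMIs and counted at 1.5-fold, and 3 counts over the class stood in for a side at 0. Library totals of 57740083 and 18627050 UMIs set the precision. Because each label has 1 library, ratios were given without a test. Members past 1.5-fold were named, up to 8 a direction, with Atr, Chek1, Atm, Chek2, H2afx, Trp53bp1, Prkdc and Parp1 named in T-like cells whatever their values, and up to 4 examples per list. In division-gene cells the 8 largest and 4 smallest were named, both in T-like cells and, added later, in all cells. Cells under 1000 UMIs, 337 labelled CKO and 298 labelled WT, were left out of thinning. Steps were tested on simulated data. The members and lists were chosen with earlier results of these data known. Alternatives varied the UMI minimum, scaling, cell calling, filters, doublets, single cells of most UMIs, division cells and clustering. Values of some genes on the lists are not reported here.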

Additional observations from a re-analysis of the deposited data

Results flagged for a closer look

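Several members were past 1.5-fold in opposite directions in different classes. Each difference between classes rests on 1 library per label and was not tested. Atrip had a log2 ratio of CKO over WT of 0.83 (0.15 to 1.58) in B-like cells, on 140 and 20 UMIs, and of -0.73 (-1.49 to 0.03) in plasma-like cells, on 31 and 32 UMIs. Chek1 was at 0.82 (-0.59 to 2.45) in plasma-like cells, on 17 and 6 UMIs, and at -0.84 (-1.50 to -0.18) in the cycling cluster, on 38 and 44. Rad51ap1 was at 1.07 (-0.15 to 2.45) in T-like cells, on 22 and 8 UMIs, and at -0.68 (-1.24 to -0.11) in the cycling cluster, on 54 and 56. Xrcc1 was at 1.01 (-0.04 to 2.16) in T-like cells, on 29 and 11 UMIs, at -0.72 (-1.46 to 0.01) in plasma-like cells, on 33 and 34, and at -0.82 (-1.37 to -0.27) in the cycling cluster, on 55 and 63.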

How the results depend on the processing

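Of 138 alternative values, 114 stayed close to the reported one, a count within 1.5 times or a median inside the interval of the members' median, 23 moved and 1 changed sign. That one was the B-like WT median of division-gene cells over the rest, -0.15 as reported and 0.21 with 1 or more thinned division UMIs. It was -0.01 at 50 UMIs, and the T-like WT one, 0.40 as reported, was 0.05 with 4 or more thinned UMIs. In T-like cells the count of members 1.5-fold higher, 6 as reported, was 2 at a minimum of 50 UMIs, 12 when each cell was called by its own markers and 3 without division-gene cells, and the count lower, 4 as reported, was 2 at 50 UMIs. In B-like cells the count higher, 2 as reported, was 1 at 50 UMIs, 0 by own markers, 4 with doublets kept and 4 without the cell of most UMIs of each gene. The count lower, 2 as reported, was 0 with scaling by the median of gene ratios, 11 by own markers and 0 without that cell, and the median of -0.10 was -0.34 by own markers. In plasma-like cells the count higher, 1 as reported, was 2 at 10 UMIs, 0 at 50 and 0 without the top cell, and the count lower, 9 as reported, was 5 at 50 UMIs and 5 with median scaling. In the cycling cluster the count higher, 2 as reported, was 0 at 50 UMIs, and the count lower, 14 as reported, was 7 in cells with division UMIs. Over all cells, the median ratio of division-gene cells over the rest, 1.36 in the CKO-labelled library, was 0.74 with the rest weighted to the same classes. In the WT-labelled library it was 1.5 as reported, 0.0010 so weighted, 0.59 weighted without the cycling cluster and 0.83 without that cluster. The all-cells and cycling cluster settings were chosen after seeing the data, and the causes were not tested. In B-like cells 4 or more thinned division UMIs gave no value in either library, nor did the unthinned setting in the CKO-labelled library. No paired analysis was possible because each label has 1 library and no replicate number. The UMIs of a gene limit most single ratios: at 20 UMIs an interval spans several fold.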
